A study of Mus musculus with 12 samples.

Results

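Leukocyte adhesion molecules are the surface proteins by which white blood cells are held on a vessel wall and led into a tissue. The set described here is 7 genes, taken by symbol from a table of 55536 genes: the selectins Sele and Selp, the immunoglobulin-family integrin ligands Icam1, Icam2, Vcam1 and Madcam1, and the hyaluronan receptor Cd44. All 7 were among the 19800 genes that passed the filter on low counts. Their RNA was measured by sequencing in pancreatic islets, the hormone-secreting cell clusters of the pancreas, from 16-week-old mice on a mixed strain background of C57BL/6J. There were 12 libraries in 4 groups of 3. Control islets have the genotype label PTPN2 fl/fl (PTPN2 +/+ in the titles), and the islets called Ptpn2-bKO in the protocols have the genotype label PTPN2 -/-. The sources used here name neither the promoter driving the deletion nor the deleted exons. Islets of both genotypes were either untreated or kept for 24 h in culture medium with 3 cytokines, IL-1beta, IFN-gamma (spelled INF-gamma in the labels) and TNF-alpha. The sample titles call the former not treated and give no time in culture for them, so a part of culture itself in the changes was not tested. Islets came from 3 mice per genotype for 6 libraries, so some libraries come from the same mouse, and the labels do not say which.

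White blood cells are slowed by selectins, which bind sugars on their surface, and then stop when their integrins bind ICAM and VCAM proteins on the endothelium, the cell layer lining the vessel. E-selectin is made by activated endothelium, whereas P-selectin is stored in endothelial and platelet granules and released on activation. ICAM-1 and VCAM-1 are textbook products of TNF and IL-1 signalling through NF-kB, and ICAM-1 also responds to interferon-gamma. ICAM-1 and CD44 are found on many cell types besides endothelium, and MAdCAM-1 is best known from gut vessels, although it is also described in inflamed islets.

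Promoter sequences show how far these genes share the letters bound by the factors that TNF, IL-1 and interferon-gamma act on. Windows of 300 bases, from 250 bases before to 50 bases after the RefSeq start site (GRCm38.p6), were at hand for 5 of the 7 genes, with Icam2 and Vcam1 missing. Those of the 4 genes with a match are printed 5′ to 3′ on the strand of the gene, with the matches in capitals. The motifs searched on both strands were a strict NF-kB consensus, which many known NF-kB sites do not match in every letter, the interferon-gamma activated site GAS (TTCNNNGAA), the interferon response element ISRE and AP-1 (TGANTCA).
Icam1 promoter, chr9:21015690-21015989, plus strand: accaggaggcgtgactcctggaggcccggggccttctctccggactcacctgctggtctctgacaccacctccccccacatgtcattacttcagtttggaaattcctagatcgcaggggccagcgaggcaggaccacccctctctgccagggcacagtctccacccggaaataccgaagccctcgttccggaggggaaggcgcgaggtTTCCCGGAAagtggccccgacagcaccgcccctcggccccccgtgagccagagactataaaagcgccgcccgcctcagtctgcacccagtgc
Madcam1 promoter, chr10:79664309-79664608, plus strand: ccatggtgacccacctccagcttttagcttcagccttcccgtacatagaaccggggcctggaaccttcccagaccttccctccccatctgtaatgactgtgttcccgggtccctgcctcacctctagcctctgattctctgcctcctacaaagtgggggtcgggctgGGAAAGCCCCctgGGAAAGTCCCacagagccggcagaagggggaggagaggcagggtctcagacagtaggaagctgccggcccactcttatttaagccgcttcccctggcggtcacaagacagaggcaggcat
Sele promoter, chr1:164047984-164048283, plus strand: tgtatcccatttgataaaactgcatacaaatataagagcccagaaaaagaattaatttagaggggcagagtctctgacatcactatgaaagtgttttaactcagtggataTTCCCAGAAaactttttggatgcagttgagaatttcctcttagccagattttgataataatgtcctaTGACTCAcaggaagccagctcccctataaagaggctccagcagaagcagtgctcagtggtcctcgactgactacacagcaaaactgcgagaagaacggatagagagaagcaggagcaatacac
Selp promoter, chr1:164115014-164115313, plus strand: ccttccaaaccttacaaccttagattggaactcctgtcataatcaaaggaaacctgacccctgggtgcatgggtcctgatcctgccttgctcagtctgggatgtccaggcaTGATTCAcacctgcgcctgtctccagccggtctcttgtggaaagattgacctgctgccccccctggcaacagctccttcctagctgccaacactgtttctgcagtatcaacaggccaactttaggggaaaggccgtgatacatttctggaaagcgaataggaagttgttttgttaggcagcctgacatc
The capitals mark a GAS match in Icam1 at positions -42 to -34 from the start site, and a pair of NF-kB matches in Madcam1 at -83 to -74 and -70 to -61. In Sele they mark a GAS match at -140 to -132 and an AP-1 match at -73 to -67, and in Selp an AP-1 match at -139 to -133. Cd44 held none of the 4 motifs. GAS and AP-1 read the same on both strands, and no marked matches overlap. Of 32851 RefSeq promoters of the same length, 4.51% hold the NF-kB letters, 8.3% GAS, 3.44% ISRE and 7.81% AP-1. A match is only a run of letters, and binding was not measured.

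The libraries held 47064061 to 107515565 counts. Beta cell markers, led by Ins2, summed to 90048 to 177575 CPM (counts scaled to the TMM library size) over the 12 libraries, a sum set mainly by the insulin genes. Treatment separated the libraries along the first principal component (85.5% of the variance). Replicate 2 of the treated bKO-labelled islets lay alone at one end of the second (4.25%), and values without it are given beside the results it moves most. Ptpn2 itself was not lower under the bKO label: it read 30.3, 31.5 and 31.4 CPM in untreated control libraries and 36.7, 33.8 and 35.5 in untreated bKO-labelled ones. With cytokines it read 88.8, 90.4 and 78.3 against 110, 84.1 and 107 CPM. The genotype difference did not pass in untreated (log2 0.19, SE 0.098, adjusted p = 0.989) or treated islets (0.23, SE 0.097, adjusted p = 0.26). Counts are summed over the whole gene and all islet cells, so loss of the deleted part was not tested, and the genotype is called "bKO-labelled" throughout.

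Cytokines moved 6 of the 7 genes in control islets: Icam1, Vcam1, Sele and Cd44 rose, Icam2 and Selp fell, and Madcam1 did not pass. In bKO-labelled islets Icam1, Vcam1, Cd44 and Madcam1 rose, none fell, and Sele, Icam2 and Selp did not pass. Calls are at an adjusted p under 0.05 in edgeR's quasi-likelihood test with Benjamini-Hochberg adjustment over all 19800 genes. The background is high: 60.6% of all tested genes were called in control islets (26.8% higher, 33.9% lower) and 62.4% in bKO-labelled islets (28.8% higher, 33.6% lower). A call by itself therefore says little about these genes, and the sizes of the changes say more. The median change of the 7 genes was log2 0.81 in control and 0.97 in bKO-labelled islets, against -0.10 and -0.06 over all tested genes.

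**Figure D1:**
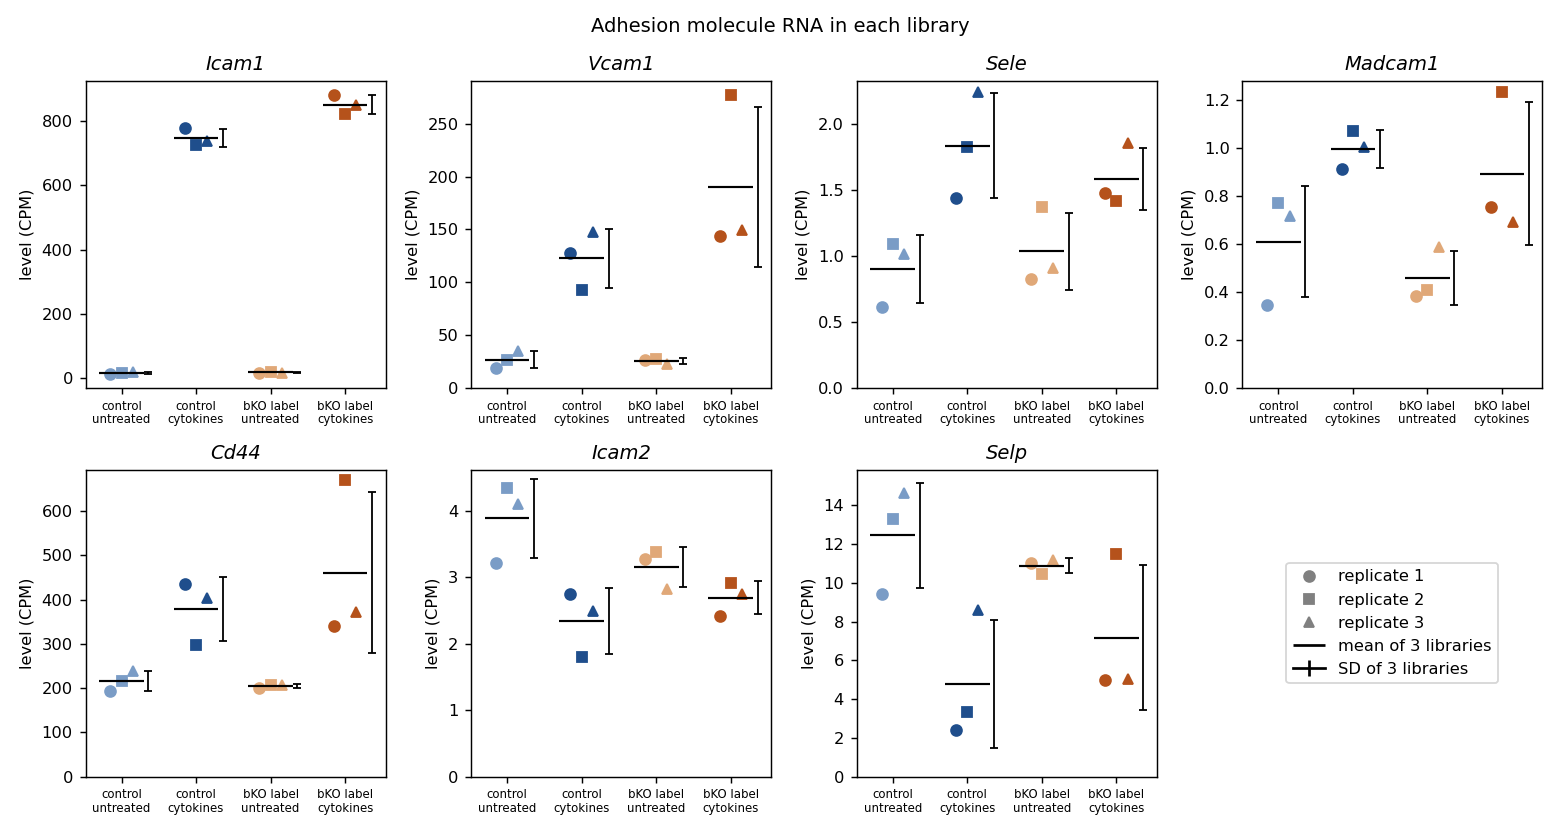
Level of each gene in CPM (linear axis, from 0) in the 12 libraries of 4 groups; points are libraries with a marker for each replicate number, horizontal lines are group means and bars are the SD of 3 libraries. Icam1 goes from 12.6 to 19.3 CPM in untreated to 725 to 882 CPM in treated libraries, and replicate 2 of the treated bKO-labelled islets stands highest of its group for Vcam1, Cd44, Madcam1, Selp and Icam2.

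Icam1 encodes ICAM-1, the ligand of the leukocyte integrins LFA-1 and Mac-1, by which rolling cells come to a firm stop. It stood at 12.6, 16.0 and 17.2 CPM in untreated control libraries and at 778, 725 and 737 CPM after cytokines. In bKO-labelled islets it stood at 16.6, 19.3 and 16.1 CPM untreated and at 882, 823 and 849 CPM treated. Every treated library was far above every untreated one, and treated libraries of a group lay within a narrow band (746 ± 28 and 851 ± 29 CPM, SD, n = 3 each). The rise was 48.9-fold in controls (log2 5.61, SE 0.13, adjusted p = 1.47e-10), and in bKO-labelled islets it was 49.1-fold (log2 5.62, SE 0.13, adjusted p = 1.63e-10). These were the largest changes among the 7 genes in both genotypes. Its promoter window, printed above, holds 1 GAS match. In the same window the letters tggaaattcc miss the strict NF-kB consensus by 1 letter, and so do the letters gagaatttcc in the Sele window. Near matches were not searched for in the other windows or in all promoters, so their share is not known. Binding was not measured.

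Vcam1 encodes VCAM-1, which binds the integrin VLA-4 of lymphocytes and monocytes. Control libraries held 18.4, 26.8 and 34.5 CPM untreated and 128, 92.5 and 147 CPM treated. The bKO-labelled libraries held 26.8, 27.1 and 22.7 CPM untreated and 144, 277 and 149 CPM treated. Treated and untreated libraries did not overlap in either genotype, but 1 treated library, replicate 2 of the bKO-labelled islets, was nearly as high as the other two of its group together. The rise was 4.61-fold in controls (log2 2.20, SE 0.29, adjusted p = 4.95e-05) and 7.45-fold in bKO-labelled islets (log2 2.90, SE 0.30, adjusted p = 6.4e-06). Without that replicate the second was 5.98-fold (log2 2.58, adjusted p = 9.82e-07).

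Icam2 encodes ICAM-2, an LFA-1 ligand that resting endothelium carries without stimulation. It read 3.21, 4.34 and 4.10 CPM in untreated and 2.75, 1.80 and 2.49 CPM in treated control libraries. In bKO-labelled islets it read 3.27, 3.38 and 2.82 CPM untreated and 2.42, 2.91 and 2.75 CPM treated. Control groups did not overlap, and bKO-labelled groups did. Icam2 fell in controls 1.66-fold (log2 -0.73, SE 0.18, adjusted p = 0.0046), and the change in bKO-labelled islets did not pass (log2 -0.23, SE 0.18, adjusted p = 0.298). Its direction was thus opposite to that of Icam1 in the same libraries.

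Madcam1 encodes MAdCAM-1, the ligand of the gut-homing integrin alpha4beta7. Its promoter window holds the pair of matches to the strict NF-kB consensus. Its counts were low, from 22 to 104 reads per library. It read 0.344, 0.771 and 0.716 CPM in untreated and 0.912, 1.07 and 1.00 CPM in treated control libraries. In bKO-labelled islets it read 0.382, 0.408 and 0.588 CPM untreated and 0.753, 1.24 and 0.693 CPM treated. Groups did not overlap in either genotype, by small margins. The change was log2 0.70 in controls (SE 0.32, adjusted p = 0.0734, not passing) and a 1.96-fold rise in bKO-labelled islets (log2 0.97, SE 0.33, adjusted p = 0.0237). Which genotype passed turned with a single library: without replicate 2 of the treated bKO-labelled islets, controls passed (log2 0.78, adjusted p = 0.0295) and bKO-labelled islets did not (log2 0.71, adjusted p = 0.0892). The bKO-labelled call was also lost without replicate 1 (adjusted p = 0.079) or replicate 2 (adjusted p = 0.077) of the untreated bKO-labelled islets.

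Sele encodes E-selectin, on which leukocytes roll. It was also scarce, with 39 to 177 reads per library. Control libraries held 0.611, 1.09 and 1.01 CPM untreated and 1.44, 1.83 and 2.25 CPM treated. The bKO-labelled libraries held 0.826, 1.37 and 0.913 CPM untreated and 1.48, 1.42 and 1.85 CPM treated. No treated library was below an untreated one of its genotype, but in bKO-labelled islets the gap was 1.37 to 1.42 CPM. Sele rose 2.02-fold in controls (log2 1.02, SE 0.27, adjusted p = 0.0068). In bKO-labelled islets the change was log2 0.61 (SE 0.27, adjusted p = 0.0716), and it passed without replicate 2 of the untreated (log2 0.86, adjusted p = 0.0279) or of the treated islets (log2 0.74, adjusted p = 0.0483).

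Selp encodes P-selectin. It read 9.43, 13.3 and 14.6 CPM in untreated control libraries and 2.42, 3.33 and 8.58 CPM in treated ones. In bKO-labelled islets it read 10.99, 10.5 and 11.2 CPM untreated and 4.96, 11.5 and 5.05 CPM treated. The treated control libraries spread widely but stayed below the untreated ones, and in bKO-labelled islets 1 treated library, replicate 2, reached the untreated level. Selp fell in controls 2.63-fold (log2 -1.39, SE 0.43, adjusted p = 0.0156), whereas log2 -0.60 in bKO-labelled islets did not pass (SE 0.43, adjusted p = 0.242). Without replicate 2 of the treated bKO-labelled islets, Selp fell there 2.09-fold (log2 -1.06, adjusted p = 0.035). The control call was lost without replicate 1 (log2 -1.08, adjusted p = 0.056) or replicate 2 (log2 -1.19, adjusted p = 0.0611) of the treated islets, and the change grew to log2 -2.11 without replicate 3. Sele and Selp both lie on chromosome 1, and in control islets the first rose and the second fell.

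Cd44 encodes a receptor for hyaluronan, a sugar of the tissue matrix, and also serves as a selectin ligand on leukocytes. Control libraries held 194, 215 and 239 CPM untreated and 435, 297 and 404 CPM treated. The bKO-labelled libraries held 200, 207 and 207 CPM untreated and 341, 669 and 371 CPM treated. Groups did not overlap, and replicate 2 was again the highest treated bKO-labelled library. The rise was 1.75-fold in controls (log2 0.81, SE 0.22, adjusted p = 0.00836) and 2.25-fold in bKO-labelled islets (log2 1.17, SE 0.23, adjusted p = 8.12e-04), or 1.81-fold without that replicate (log2 0.86, adjusted p = 9.38e-05). With library totals in place of TMM scaling the control rise no longer passed (log2 0.58, adjusted p = 0.0535). That scaling shifts the median of all genes by -0.23 in both genotypes.

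**Figure D2:**
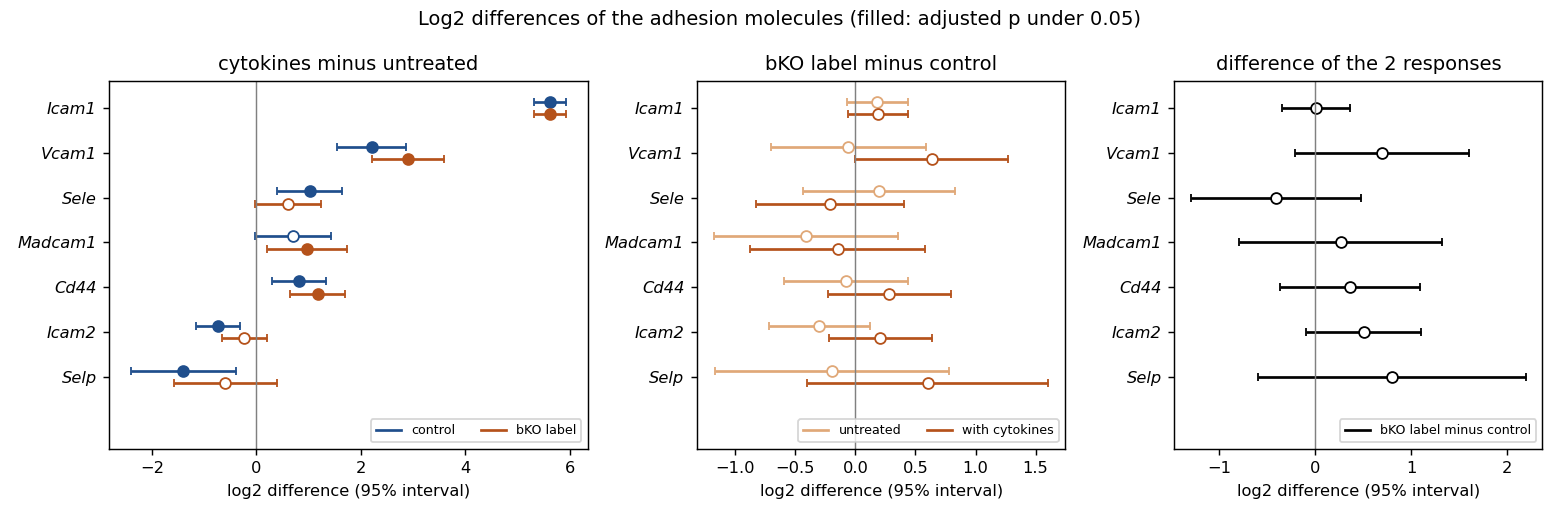
Log2 differences of the 7 genes with 95% intervals (x axis, log2 scale): cytokines minus untreated in each genotype (left), bKO-labelled minus control in each treatment (middle), and the difference of the cytokine responses (right). Filled points have an adjusted p under 0.05; all 6 control calls and 4 bKO-labelled calls are in the left panel, and no point of the other panels is filled.

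None of the 7 genes differed between the genotypes in the test. In untreated islets 0 were called, of a background of 0.0758%, and the log2 differences ran from -0.41 for Madcam1 to 0.20 for Sele, with 0 at an unadjusted p under 0.05. With cytokines 0 were called, of a background of 0.232% (0.141% higher, 0.0909% lower). Vcam1 alone was at an unadjusted p under 0.05 (log2 0.63, SE 0.28, unadjusted p = 0.0415, adjusted p = 0.265), and its groups overlapped. Without replicate 2 of the treated bKO-labelled islets that difference was log2 0.25 (adjusted p = 0.698). The treated genotype difference of Selp was 0.60 with that library and 0.08 without it, and that of Cd44 0.28 and -0.10. Treated Icam1 read 823 to 882 CPM in bKO-labelled and 725 to 778 CPM in control libraries. The 1.14-fold difference did not pass (log2 0.19, SE 0.11, 95% interval -0.06 to 0.44, adjusted p = 0.36). Of all tested genes 17.8% were at an unadjusted p under 0.05 between the treated genotypes. DESeq2 and limma-voom also called 0 of the 7 in both genotype comparisons, with 0 and 1 at an unadjusted p under 0.05.

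The difference of the cytokine responses was called for 0 of the 7 genes by edgeR, DESeq2 and limma-voom, with 0 at an unadjusted p under 0.05 by each. The background over all tested genes was 0% in edgeR, whereas DESeq2 called 100 genes higher and 86 lower. For Icam1 it was log2 0.01 (SE 0.15, adjusted p = 0.991), with a 95% interval of -0.35 to 0.36. A genotype effect on the Icam1 response within that interval was not detectable with 3 libraries per group. For the other genes the intervals were wider. They were -0.21 to 1.598 for Vcam1 (log2 0.69), -0.09 to 1.10 for Icam2 (0.51), -0.36 to 1.09 for Cd44 (0.36), and -0.60 to 2.19 for Selp (0.80). They were -0.79 to 1.32 for Madcam1 (0.26) and -1.30 to 0.48 for Sele (-0.41). Without replicate 2 of the treated bKO-labelled islets the differences were 0.31 for Vcam1, 0.28 for Selp, -0.02 for Cd44, -0.07 for Madcam1 and 0.44 for Icam2. Icam2, Selp and Sele passed in control islets and not in bKO-labelled ones, but these intervals show that the responses themselves were not told apart.

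Replicate 2 of the treated bKO-labelled islets differed from its group in cell markers as well. Relative to the mean of the other two libraries, Selp was 2.29 times as high there, Vcam1 1.89, Cd44 1.88 and Madcam1 1.71 times. Icam2 stood at 1.12, Icam1 at 0.951 and Sele at 0.849 times. The sum of stellate and pericyte markers, led by the collagen gene Col1a1, was 2.56 times as high and that of platelet markers, led by Pf4, 2.60 times. Endothelial (1.21) and macrophage markers (1.15) differed less, and beta cell (0.581) and acinar markers (0.368) were lower. The part of these cells in the levels of Selp, Vcam1, Cd44 and Madcam1 in this library was not tested.

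**Figure D3:**
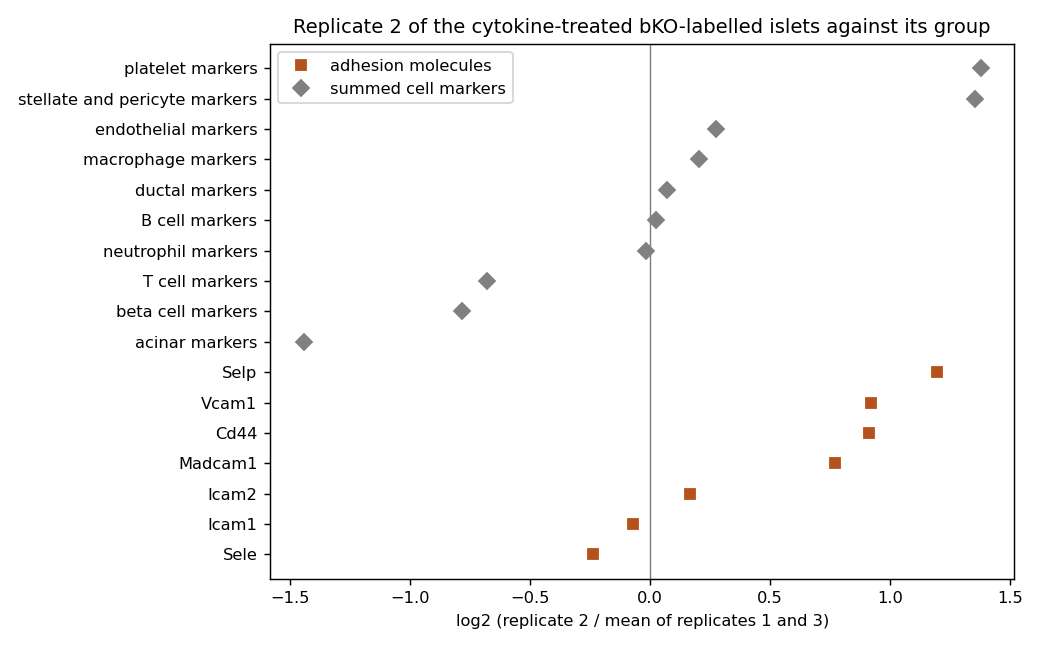
Replicate 2 of the treated bKO-labelled islets relative to the mean of replicates 1 and 3, as log2 ratio (x axis), for the 7 genes (squares) and for summed cell marker lists (diamonds); 1 library against 2, with no error. Selp, Vcam1, Cd44 and Madcam1 lie to the right with platelet (2.60 times) and stellate markers (2.56 times), and Icam1 and Sele lie just left of 0.

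Endothelial marker RNA fell with cytokines, in control islets in the same libraries in which Icam1, Vcam1 and Sele rose. All 13 endothelial markers fell in controls (median log2 -1.91) and 12 of 13 in bKO-labelled islets (median -1.53; Cldn5 did not pass). Their summed level was 837 to 1095 CPM in untreated and 245 to 344 in treated control libraries, and 945 to 979 and 303 to 412 CPM in bKO-labelled ones. Kdr, the main receptor for vascular growth factor, fell from 146 ± 11 to 19.3 ± 4.3 CPM (SD, n = 3) in controls. Eng, the most abundant of the list, fell from 190 ± 25 to 114 ± 21 CPM. In bulk RNA, fewer cells of a type and less RNA per cell cannot be told apart.

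Set against the summed endothelial markers of the same library, the 7 genes spread into an order. Icam1 went from 1.52 ± 0.043% of that sum in untreated to 246 ± 44% in treated control islets, and from 1.80 ± 0.18% to 238 ± 47% in bKO-labelled ones, 162 and 132 times as much. On this scale Vcam1 was 15.1 and 19.4 times as high with cytokines, Sele 6.84 and 4.08, Cd44 5.64 and 5.84, and Madcam1 5.604 and 5.08 times. Icam2, which fell in control CPM, was 1.95 times as high relative to the endothelial sum in controls and 2.26 times in bKO-labelled islets. Its treated libraries (0.705 to 0.807%) all lay above the untreated ones (0.298 to 0.402%). Selp was 1.24 and 1.69 times as high, with control groups that overlapped (1.13 to 1.34% untreated, 0.71 to 2.49% treated). The scale is a description with no test, and it presumes that a gene is made in endothelium, whereas Cd44 and Icam1 are known from many other cells too. With Kdr and Cdh5 alone as the reference every ratio was larger, from 1.85 for Selp to 247 for Icam1 in controls. This pair fell more steeply than the whole sum, so larger ratios were set by the choice. In controls Eng, the most abundant marker, fell less than the sum, and against it the ratios would be smaller. The control rises of Icam2 and Selp on this scale thus depend on the markers chosen.

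**Figure D4:**
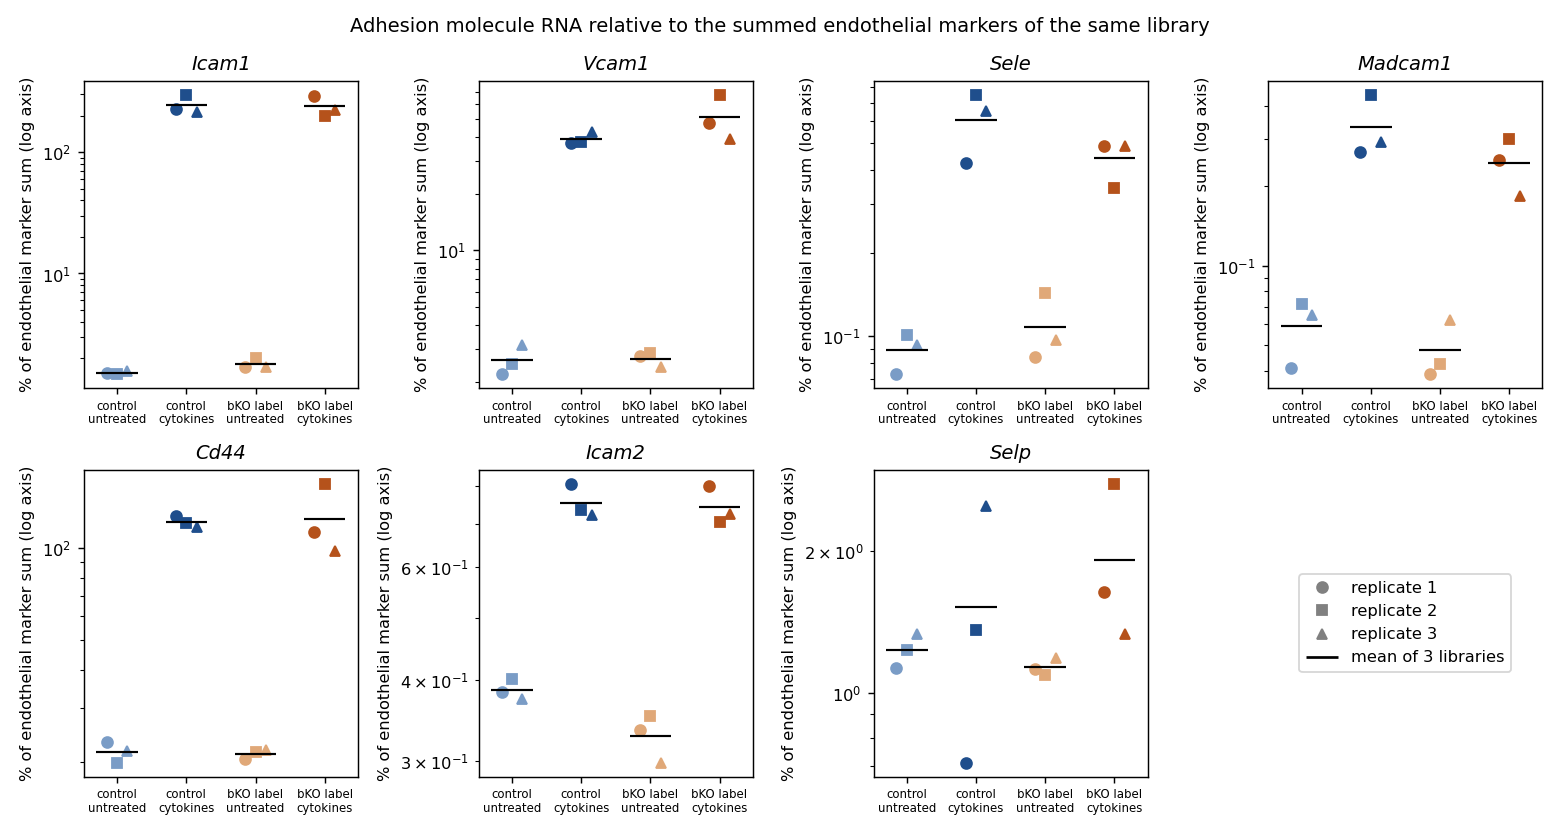
Each gene as a percent of the summed endothelial marker CPM of the same library (log axis), in the 12 libraries of 4 groups; horizontal lines are means of 3 libraries. Treated libraries lie above untreated ones of their genotype for every gene but Selp, whose control groups overlap (0.71 to 2.49% treated).

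Other cell markers moved with the treatment too. Of 9 beta cell markers 6 fell and 0 rose in both genotypes (medians log2 -2.17 and -2.61), with Pdx1, a regulator of insulin genes, at -2.65 and -2.84, while Ins1, Ins2 and Iapp did not pass. DESeq2 and limma-voom each called 1 of them higher in controls. Their sum, set mainly by the insulin genes, went from 124918 to 136722 CPM in untreated to 144557 to 177575 in treated control libraries. In bKO-labelled islets it went from 124376 to 135716 to 90048 to 162413 CPM. Of 12 acinar markers 11 fell in controls (median -2.30) and 6 in bKO-labelled islets (median -0.98). Their sum went from 5075 to 8197 CPM in untreated to 990 to 1612 in treated control libraries, and from 2341 to 3819 to 848 to 3163 CPM in bKO-labelled ones. Of 12 macrophage markers 10 rose and 1 fell in both genotypes, with C1qa at log2 1.76 and 1.71 and Cd68 at 1.97 and 1.77. Their sum went from 285 to 325 CPM in untreated to 583 to 688 in treated control libraries, and from 279 to 345 to 625 to 793 CPM in bKO-labelled ones. All 4 tested neutrophil markers rose, with S100a9 at 0.0415 CPM untreated and 22.9 CPM treated in controls. Genes this scarce untreated can pass the low-count filter through treated libraries alone, so the count of 4 is partly set by the filter. The sum of the listed neutrophil markers went from 0.705 to 1.36 to 29.7 to 33.4 CPM in controls. In bKO-labelled islets it went from 0.831 to 1.05 to 45.6 to 52.7 CPM. Cxcr2 and Ngp, which define neutrophils more closely than the S100 genes, had too few counts to test. T cell markers summed to 3.63 to 5.31 CPM in untreated and 7.86 to 11.4 in treated control libraries, and to 5.23 to 6.12 and 10.2 to 17.5 CPM in bKO-labelled ones. Of the 3 tested, Lck rose (log2 1.36 in controls and 1.57 in bKO-labelled islets), Trac fell by 2.38 and 1.56, and Cd4 did not pass. Cd3e, Cd3d, Cd3g and Cd8a were too low to test, with Cd3e at 0.046 to 0.064 CPM on average per group. None of the 3 tested platelet markers passed, and Gp9, Gp1bb and Gp6 were too low to test. Stellate and pericyte markers summed to 1954 to 2508 CPM in untreated and 1561 to 4421 in treated control libraries, and to 2235 to 2970 and 3160 to 8330 CPM in bKO-labelled ones. In controls 1 of 9 rose (Dcn) and 1 fell (Rgs5), and in bKO-labelled islets 5 rose and 1 fell, or 2 and 2 without replicate 2. Ductal markers summed to 1167 to 1326 CPM in untreated and 1931 to 2186 in treated control libraries, and to 1008 to 1205 and 1999 to 2316 CPM in bKO-labelled ones. Of 8 ductal markers 3 rose and 4 fell in controls, and 3 rose and 0 fell in bKO-labelled islets. The part of all these cells in the changes of Icam1, Vcam1, Cd44 and Selp was not tested.

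The leukocyte integrins, which bind these ligands from the other side, rose beside Icam1 and Vcam1. In both genotypes 6 of the 8 tested rose and 0 fell (median log2 1.28 and 1.40). Itgb2, the shared beta chain of LFA-1 and Mac-1, stood at 8.92, 11.4 and 13.2 CPM in untreated and 84.6, 63.3 and 62.7 CPM in treated control libraries. In control islets its rise was log2 2.65 (SE 0.20, adjusted p = 6.41e-07), and in bKO-labelled islets it was 2.53 (SE 0.20, adjusted p = 7.97e-07). Itgal, the alpha chain of LFA-1, rose by 1.51 and 1.57, Itgax, a chain of macrophages and dendritic cells, by 1.59 and 1.45, and Itgb7, the chain that pairs for MAdCAM-1, by 1.51 and 1.82. Itga4, the alpha chain that binds VCAM-1 and MAdCAM-1, did not pass (log2 0.20, adjusted p = 0.588, and 0.33, adjusted p = 0.354). Macrophage markers, whose sums are given above, were higher in the same libraries, and their part in the integrin changes was not tested.

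Selectin ligands and the enzymes that build them went both ways. Of 12 tested, 2 rose and 5 fell in controls and 5 rose and 5 fell in bKO-labelled islets (medians log2 0.07, or -0.16 with library totals alone, and 0.36). DESeq2 called 4 higher in controls, and without replicate 2 of the treated bKO-labelled islets 6 rose in controls and 4 in bKO-labelled islets. Selplg, the P-selectin ligand PSGL-1 of leukocytes, rose by 1.11 (SE 0.22, adjusted p = 0.00117) and 1.39 (SE 0.23, adjusted p = 2.35e-04). The 2 tyrosine sulfotransferases that act on PSGL-1 went apart: Tpst1 rose by 1.49 and 1.33, and Tpst2 fell by 0.56 and 0.47 on the log2 scale. Cd34, a vessel sialomucin, fell by 1.48 and 0.78, and Chst4, a sulfotransferase of selectin ligands, fell by 2.85 and 1.32. Fut7 and Glycam1 had too few counts to test.

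Among 13 genes of hyaluronan, the ligand of CD44, 6 fell and 1 rose in controls, and 4 fell and 1 rose in bKO-labelled islets (medians log2 -0.59 and -0.30). Of all tested genes 33.9% and 33.6% fell, so the falls in this list are not a result about it. Without replicate 2 of the treated bKO-labelled islets 8 fell and 1 rose in both genotypes. The gene that rose was Cemip, which takes part in hyaluronan breakdown, from 2.62 ± 0.26 to 26.5 ± 4.4 CPM in controls (log2 3.34, SE 0.25) and by 3.29 (SE 0.24) in bKO-labelled islets. Stab2, a scavenger receptor of sinusoidal endothelium, fell by 2.32 and 2.26 on the log2 scale, the hyaluronidase Hyal1 by 0.95 and 0.88, and the hyaluronan receptor Hmmr, also a cell cycle gene, by 1.71 and 1.08.

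Molecules of the endothelial junction went both ways. In both genotypes 5 of 12 rose and 6 fell (medians log2 -0.23 and -0.13). F11r, the junction protein JAM-A of epithelia and endothelium, rose by 1.40 and 1.54, and Pvr, a nectin-like receptor of many cells, by 1.64 and 1.72. Jam2 (-2.40 and -1.78), Pecam1 (-1.63 and -1.31) and Cdh5 (-1.76 and -1.53), all known from endothelium, fell. Of 7 cytoskeletal linkers and sheddases 4 rose in controls and 6 in bKO-labelled islets, and 0 fell (medians 0.59 and 0.90). Adam17, which sheds VCAM-1 and other surface proteins, rose by 1.70 (SE 0.055) and 1.54 (SE 0.055), and Mmp9, which can cleave ICAM-1, by 4.25 (SE 0.46) and 4.89 (SE 0.47). Msn, which ties ICAM and VCAM tails to actin, rose by 0.62 and 0.90. In controls the count of 4 was 2 with library totals alone and without control libraries untreated replicate 1, untreated replicate 2 or treated replicate 1.

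Of the 53 tested partner genes, 19 were called higher and 17 lower with cytokines in controls, and 24 and 15 in bKO-labelled islets. Of all tested genes 26.8% were called higher and 33.9% lower in controls, and 28.8% and 33.6% in bKO-labelled islets. The counts of partner genes called lower are near these shares and are not a result about them. The counts of each partner and marker list above are to be read against the same shares. In edgeR 0 of the 53 were called between the genotypes, with 1 at an unadjusted p under 0.05 in untreated and 12 in treated islets, and 0 were called for the difference of the responses, with 6. These are 1.89%, 22.6% and 11.3% of the 53, against 5.55%, 17.8% and 10.9% of all tested genes. DESeq2 called 3 with cytokines, all higher in bKO-labelled islets, beside 296 higher and 409 lower over all tested genes. It called 0 of the 53 in the remaining comparisons, and limma-voom called 0 in all of them.

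Per length of gene, the order of the 7 turned with treatment. In untreated control islets Cd44 was the most abundant at 31.9 ± 3.3 CPM per kilobase of exon. Icam1 (3.50 ± 0.55), Vcam1 (2.99 ± 0.91), Selp (2.82 ± 0.61) and Icam2 (2.04 ± 0.31) followed, each overlapping its neighbour, and then Madcam1 (0.425 ± 0.16) and Sele (0.311 ± 0.088), which overlapped each other. In treated control islets Icam1 led with 171 ± 6.3, before Cd44 (55.9 ± 11) and Vcam1 (13.8 ± 3.1), with no overlap among these. Icam2 (1.23 ± 0.26), Selp (1.08 ± 0.75), Madcam1 (0.693 ± 0.056) and Sele (0.631 ± 0.14) each overlapped the next. In bKO-labelled islets the same gene led in each treatment, Cd44 at 30.2 ± 0.59 untreated and Icam1 at 195 ± 6.8 treated. There Sele stood before Madcam1 untreated and Selp before Icam2 treated, in both cases with overlap. With the longest transcript as length, untreated control Vcam1 (6.49) stood before Icam1 (6.02), and treated bKO-labelled Icam2 (2.10) before Selp (2.08).

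The genes whose levels ran most alike over the 12 libraries differed from member to member. For Icam1 they were the guanylate-binding proteins Gbp2 and Gbp3, known interferon-gamma targets, and the chemokine Cxcl1 (Pearson r of log2 CPM 0.9996 for Gbp2 and 0.999 for the other two). Gbp2 went from 8.90 to 4565 CPM in controls. For Vcam1 they were Cyba (r = 0.997), Spats2l (0.996) and Ly6a (0.995), and Cyba stood at 17.8, 57.8, 17.3 and 77.3 CPM in untreated and treated control and untreated and treated bKO-labelled islets. For Cd44 they were Apaf1, Rbms1 and Gnb4 (0.99 each). The scarce or falling genes had looser company: Selp had Rnf111 (0.94), Icam2 had Ankrd37 (0.94), Sele had Sft2d1 (0.92) and Madcam1 had Hnrnpd (0.87). Among the members themselves Icam1 and Vcam1 had r = 0.96, Vcam1 and Cd44 0.96, and Icam2 and Selp 0.72. The 12 points share their 4 groups, so these values mostly describe how alike the group means are.

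In the genome (GRCm38, GENCODE M21) Icam1 lies at chr9:21015985-21028817 on the plus strand, followed by its relatives Icam4 and Icam5. Icam5, a neuronal ICAM, rose from 0.293 ± 0.052 to 0.860 ± 0.086 CPM in controls (log2 1.54, SE 0.28, adjusted p = 5.32e-04) and by 1.85 (SE 0.28, adjusted p = 1.32e-04) in bKO-labelled islets. Icam4 had 4, 8 and 2 reads in untreated and 8, 6 and 8 in treated control libraries, and 1, 3 and 2 against 10, 12 and 8 in bKO-labelled ones, too few for the filter. Without the filter it was called higher with cytokines in bKO-labelled islets (adjusted p = 0.00453) and not in controls (adjusted p = 0.493), at 1 to 12 reads per library. Leaving out 1 library, it was tested in 10 of 12 fits, and not in those without replicate 1 or 2 of the treated bKO-labelled islets. It thus passed that filter only with both of its highest libraries present, so these fits add nothing to the call. Whether its response differed between the genotypes is not given here. Sele (chr1:164048234-164057677) and Selp (chr1:164115264-164150026) are both on the plus strand. Vcam1 is at chr3:116109949-116129688, Icam2 at chr11:106377656-106388075 and Cd44 at chr2:102811141-102901665, all on the minus strand, and Madcam1 at chr10:79664559-79668537 on the plus strand. Icam1, Vcam1 and Selp overlap antisense transcripts (Gm47079, Gm43109 and Gm16587), Selp also overlaps Gm16548 and Cd44 the small RNA gene Gm23731, each on the opposite strand. Whether counting used strand is not stated in the sources used here, and reads of these pairs cannot be told apart. Counts are summed over each gene, so the splice forms of Cd44 were not told apart.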

How the data were processed

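Total RNA of mouse islets was sequenced in 12 libraries, and the groups and replicate numbers were taken from the sample titles. The authors deposited raw, whole-number gene counts with no normalization. The submitters' processing notes name STAR 2.5.2a, featureCounts 1.6.2, cutadapt 1.16, DESeq2 1.30.0, FastQC 0.11.7 and the genome GRCm38. Strand setting and annotation release are not stated in the sources used here.

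Genes were filtered by filterByExpr, given TMM factors and compared by the quasi-likelihood test of edgeR 4.0.16 (R 4.3.3), with 1 coefficient per group over 12 libraries and Benjamini-Hochberg adjustment at 0.05. Intervals are 95%. The 7 genes and all lists were chosen with earlier results of these data known. Named are all 7 genes, Ptpn2, their receptors and genomic neighbours, up to 4 genes per partner list with the smallest adjusted p, the most abundant and up to 2 such genes per marker list, and the 3 most alike genes per member (log2 CPM with a prior count of 2, at least 5 CPM in 1 group, predicted genes and pseudogenes left out). Alternatives used DESeq2 1.42.0, limma 3.58.1, other scalings and filters, and each library left out. The test was tried on simulated counts. Between libraries of a group the smallest chi-square per degree of freedom was 15.0, far above sampling noise, so none was counted as a copy. No label says which libraries come from separate mice, so p-values measure only the spread between these samples, which may be technical. 0 columns of per-sample counts were left unused. Protein sequences were not used here. Some genes that the rule names are left out of the text.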

Additional observations from a re-analysis of the deposited data

How the results depend on the processing

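Over 21 alternatives, 723 recomputed member differences gave 687 with direction and call kept, 9 that lost and 10 that gained the call, and 17 that turned in sign. None of the 10 called member changes turned in 209 recomputations, and 9 lost the call. Turned values were all near 0 and not called: the Icam1 difference of responses was -0.0103 with DESeq2's size factors and -0.00999 with the DESeq2 test. Leaving out 1 library at a time, it ran from -0.088 to 0.127 for Icam1, -0.0177 to 0.54 for Cd44 and -0.066 to 0.54 for Madcam1. The untreated genotype difference ran from -0.058 to 0.34 for Sele and -0.26 to 0.18 for Vcam1, and the treated one from -0.10 to 0.46 for Cd44 and -0.48 to 0.00317 for Madcam1. Of the genes called lower in controls, 1 was left at an adjusted p under 0.01, and 1 to 2 leaving out 1 library; in bKO-labelled islets 0 to 1 were lower. Madcam1 passed in controls with DESeq2's size factors (adjusted p = 0.0432), DESeq2 (0.0292), limma-voom (0.0431) and a fit of the compared groups only (0.0481), and was lost in bKO-labelled islets with library totals (0.0779). Sele passed in bKO-labelled islets with DESeq2's size factors (0.0461) and DESeq2 (0.0291). Madcam1 has no value under the filter at 1 CPM. Same-number correlations of deviations ran from -0.49 to 0.10, and from -0.10 to 0.10 within a genotype. In 3 of 12 comparisons of a library with the libraries of another group, its own number correlated best, and all 3 were comparisons within a genotype. Some of the 12 compare genotypes, which cannot share a mouse, so whether replicate numbers pair the libraries was not settled. With a replicate block no member call changed (Icam1 log2 5.62 in both genotypes), and all genes called between treated genotypes went from 28 higher and 18 lower to 5 and 2. The background itself moved: DESeq2 called 92 genes higher and 36 lower in untreated and 296 and 409 in treated bKO-labelled islets, and 100 and 86 for the difference of responses, and leaving out 1 library gave 2 to 191 higher and 2 to 253 lower in treated islets. A fit of the compared groups only called 91 and 30 in untreated and 0 and 0 in treated islets. Stellate markers called higher in bKO-labelled islets ran from 2 to 6. Depth limits Sele (39 to 177 reads per library) and Madcam1 (22 to 104).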
